A study of Mus musculus with 16 samples.

Results

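A set of 9 genes of the Toll-like receptor system was followed through the series: the receptors Tlr1, Tlr2, Tlr4, Tlr6, Tlr7, Tlr9 and Tlr13, the co-receptor Cd14 and the adaptor Myd88. They were chosen by symbol, and all 9 were found among the 53342 genes of the tables. Of the 16482 genes with enough counts to be tested, 8 were members, and Tlr9 was not tested. RNA was sequenced from sorted LSK cells of mouse bone marrow (lineage-negative, Sca-1-positive, c-Kit-positive), a fraction enriched for hematopoietic stem cells and multipotent progenitors. Donors were C57BL/6J animals aged 8 to 14 weeks, either wild type or Gata2 +9.5(Ets)-/-. The latter, called the mutant here, are homozygous for a single-base C-to-T transition within the Ets motif of the +9.5 enhancer, which lies in an intron of Gata2. All received an injection 10 days before harvest, of PBS or of the antimetabolite 5-fluorouracil (5-FU) at 250 mg/kg, which kills cycling cells. There were 5 wild-type and 5 mutant libraries after PBS and 3 of each genotype after 5-FU. Whether replicates came from separate animals is not stated, and each p therefore reflects only how far these samples spread, which may be technical.

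Toll-like receptors are membrane proteins that bind conserved microbial molecules through leucine-rich repeats and signal through a cytoplasmic TIR domain. TLR2 works at the cell surface as a heterodimer with TLR1 or TLR6 and binds bacterial lipopeptides, while TLR4 binds lipopolysaccharide, which CD14 hands over to it. TLR7, TLR9 and TLR13 sit in endosomes and bind single-stranded RNA, unmethylated CpG DNA and bacterial ribosomal RNA. MYD88 links all of these receptors, and the interleukin-1 receptor family, to IRAK kinases, TRAF6 and NF-kB. Stem and progenitor cells of the marrow carry some Toll-like receptors themselves, and monocytes, macrophages, dendritic cells and B cells carry them too.

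Depth per library was 19.4 to 28.9 M expected counts in total. Immunoglobulin genes held 3.67 to 50.2% of the counts in the PBS libraries, 0.0392 to 0.332% in the wild-type 5-FU libraries and 5.69 to 26.6% in the mutant 5-FU libraries. All 12 LSK markers looked at had counts in every library, and their summed level ran from 1719 to 4981 CPM (counts scaled to a common library size with TMM factors). Markers of mature cells were present as well. The 16 monocyte and macrophage markers summed to 1997 to 11397 CPM in wild-type PBS, 1338 to 14966 in mutant PBS, 205 to 525 in wild-type 5-FU and 1210 to 1580 in mutant 5-FU libraries. The sample codes of replicates 4 and 5 under PBS, in both genotypes, and of all wild-type 5-FU libraries lack the leading zero that the other codes have. What the codes mean is not said, and after 5-FU their writing and the genotype cannot be told apart. The part of a code before its letter is never shared between genotypes, under PBS or after 5-FU. Comparing only codes of the same writing does not make this part equal. Wild-type 5-FU replicate 3 shares it with wild-type PBS replicates 4 and 5, and not with the other wild-type 5-FU libraries. The mutant 5-FU libraries all have the same part before the letter. They share it with the mutant PBS libraries other than replicates 3, 4 and 5.

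Per transcript length, Myd88 was the most abundant member. Its mean TPM (a level per transcript length, which allows different genes to be compared) was 30.2 in wild-type PBS, 33.0 in mutant PBS, 141 in wild-type 5-FU and 72.8 in mutant 5-FU. Tlr2 came next in every group, with mean TPM of 6.76, 5.66, 12.8 and 6.50 in the same order. These means serve to compare genes within a group, not a gene between groups. On log2(TPM + 0.5), the median change of all genes after 5-FU in wild type was 1.12. Myd88 was above Tlr2 within each of the 16 libraries. Below Tlr2 the order depended on the group. In wild-type PBS it ran Tlr7, Tlr4, Tlr13, Cd14, Tlr6, Tlr1 and Tlr9, and the ranges of all neighbours overlapped across libraries. Tlr2 was above Tlr7 in 3 of the 5 libraries, and Tlr13 was above Cd14 in 1 of 5. The mutant PBS order was the same except that Tlr13 stood below Tlr6, with every neighbouring pair overlapping but Tlr1 and Tlr9. In wild-type 5-FU the order was Myd88, Tlr2, Tlr4, Tlr6, Tlr1, Tlr7, Cd14, Tlr13 and Tlr9, and the steps that overlapped were Tlr1 to Tlr7 and Tlr7 to Cd14. In mutant 5-FU, the mean of Tlr13 took the place after Tlr2, and all steps overlapped except Myd88 to Tlr2 and Tlr6 to Tlr9. Tlr13 was above Tlr4, the next in order, in 1 of these 3 libraries. Its TPM was 0.37, 1.23 and 7.81 in mutant 5-FU replicates 1 to 3.

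**Figure D1:**
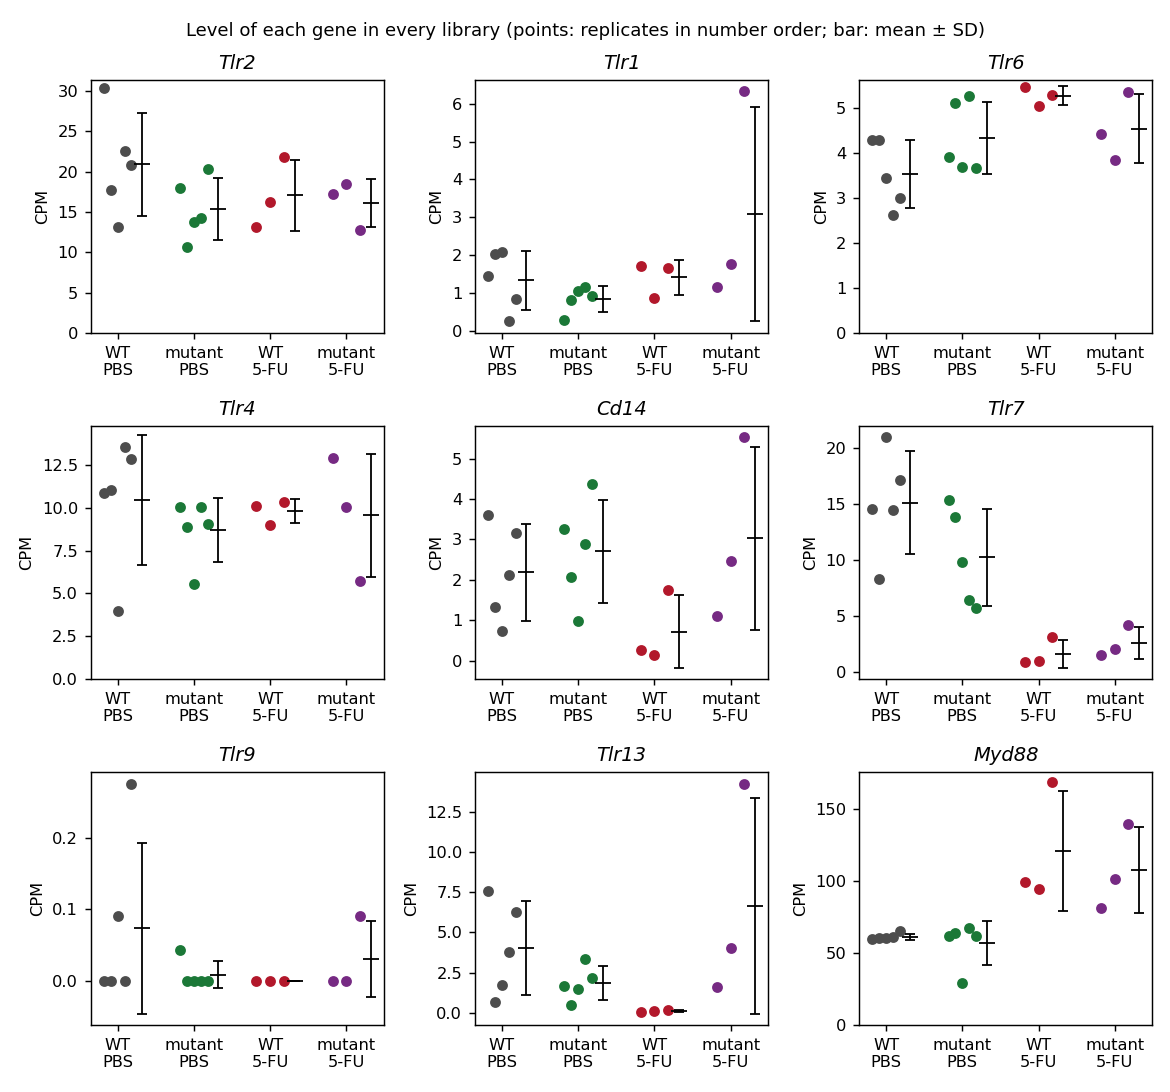
Level of each of the 9 genes in every library, in CPM (y axis), by group (x axis). Points are replicates in number order, and the bar beside them is the mean with its SD (n = 5, 5, 3 and 3). Tlr7 is low in all 6 5-FU libraries, Tlr13 is near 0 in the 3 wild-type 5-FU libraries, and Myd88 is between 81.6 and 168 CPM in the 5-FU libraries against 29.7 to 67.3 CPM in the PBS libraries.

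Among the surface receptors, Tlr2 (chromosome 3, 83836272 to 83841767, minus strand, GRCm38) had 30.4, 17.7, 13.2, 22.5 and 20.8 CPM in wild-type PBS replicates 1 to 5 and 17.96, 10.6, 13.7, 14.2 and 20.3 CPM in mutant PBS replicates 1 to 5. After 5-FU it had 13.1, 16.2 and 21.8 CPM in wild-type replicates 1 to 3 and 17.2, 18.5 and 12.7 CPM in mutant replicates 1 to 3. The 4 groups overlapped throughout. Tlr2 passed no test: the log2 fold change was −0.30 ± 0.28 (SE) for 5-FU against PBS in wild type (adjusted p = 0.444, edgeR quasi-likelihood test with Benjamini-Hochberg adjustment over the 16482 genes, as in all tests here). In the mutant it was 0.065 ± 0.28, between genotypes −0.44 ± 0.24 under PBS and −0.082 ± 0.31 after 5-FU, and the responses differed by 0.36 ± 0.39.

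Tlr4 (chromosome 4, 66827584 to 66930284, plus strand), the lipopolysaccharide receptor, stood at 10.8, 11.03, 3.99, 13.5 and 12.9 CPM in wild-type PBS and at 10.0, 8.84, 5.55, 10.0 and 9.07 CPM in mutant PBS replicates 1 to 5. The wild-type 5-FU libraries had 10.1, 8.99 and 10.3 CPM and the mutant 5-FU libraries 12.9, 10.0 and 5.74 CPM. Replicate 3 of each PBS group was the lowest of its group, and these 2 libraries also had the highest summed monocyte and macrophage markers and the highest immunoglobulin shares (44.2 and 50.2%). The fitted differences were small in every comparison, from −0.26 ± 0.30 for genotype under PBS to 0.23 ± 0.49 for the difference between genotypes in the response to 5-FU, and none passed.

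Cd14, which encodes a lipid-anchored surface protein, varied widely between libraries. Wild-type PBS replicates 1 to 5 had 3.60, 1.32, 0.726, 2.13 and 3.15 CPM, and mutant PBS replicates had 3.26, 2.08, 0.969, 2.88 and 4.37 CPM. The wild-type 5-FU replicates had 0.273, 0.133 and 1.75 CPM, which are 9, 5 and 46 counts, and the mutant 5-FU replicates had 1.10, 2.47 and 5.53 CPM. Replicates 1 and 2 of wild-type 5-FU were below every other library, while replicate 3 lay among the PBS libraries. The log2 fold change of 5-FU against PBS in wild type was −1.63 ± 0.80 (adjusted p = 0.149). Without wild-type 5-FU replicate 3 it was −3.41 (adjusted p = 0.0308). In the mutant the change was 0.16 ± 0.74 (adjusted p = 0.961), and the genotypes under PBS differed by 0.31 ± 0.64 (adjusted p = 1). Between genotypes after 5-FU the difference was 2.10 ± 0.87 (adjusted p = 0.217). It was 1.33 (adjusted p = 0.505) without mutant 5-FU replicate 3 and 3.87 (adjusted p = 0.0574) without wild-type 5-FU replicate 3. The responses differed by 1.79 ± 1.07 (adjusted p = 0.559).

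Tlr1 (chromosome 5, 64924679 to 64933563) and Tlr6 (chromosome 5, 64952031 to 64960097) are neighbours on the minus strand, and both partner TLR2. Their coding sequences, taken from GENCODE M21 transcripts on GRCm38, were 74.1% identical over 2371 aligned bases, but unevenly: 58.9% identical up to Tlr1 coding base 1347 and 93.9% from there to the stop codon. The change is shown by the stretch in which the genes become alike. Capitals mark the 19 of 100 bases at which they differ, the last of them followed by a long shared part.
Tlr1 (chr5:64925883-64925982, minus strand): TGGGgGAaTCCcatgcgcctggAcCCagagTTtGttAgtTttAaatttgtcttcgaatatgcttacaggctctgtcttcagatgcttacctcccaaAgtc
Tlr6 (chr5:64954174-64954273, minus strand): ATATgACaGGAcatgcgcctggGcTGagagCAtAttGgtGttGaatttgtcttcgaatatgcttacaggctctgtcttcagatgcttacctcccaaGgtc
The longest run with no difference has 229 bases, at chr5:64925537-64925765 in Tlr1 and chr5:64953828-64954056 in Tlr6 (minus strand). It is shown because a read lying inside it belongs to either gene.
Tlr1 and Tlr6: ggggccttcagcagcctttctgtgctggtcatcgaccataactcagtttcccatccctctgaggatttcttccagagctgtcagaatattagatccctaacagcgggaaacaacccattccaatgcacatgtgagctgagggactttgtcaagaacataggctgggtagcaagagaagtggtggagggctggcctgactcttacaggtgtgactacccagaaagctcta

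**Figure D2:**
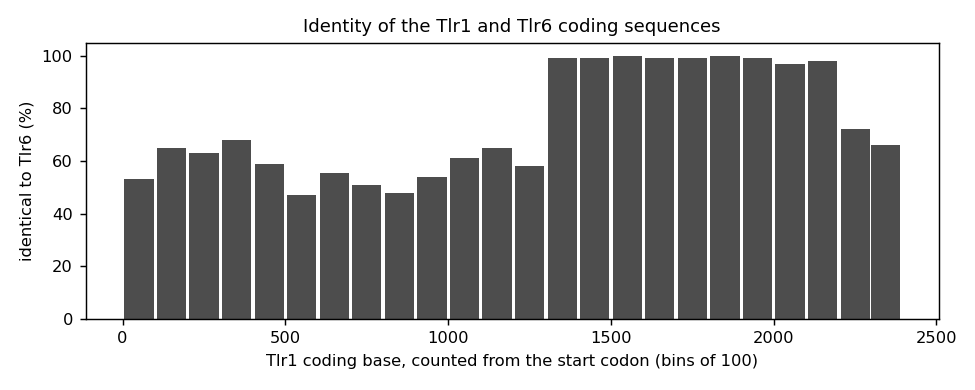
Share of identical bases between the Tlr1 and Tlr6 coding sequences (y axis, %) in bins of 100 bases along Tlr1 (x axis, bases from the start codon). Identity steps up to near 100% in the bins after base 1300 and drops again in the last 2 bins.

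Of the 2285 windows of 101 bases in the Tlr1 coding sequence, 256 (11.2%) occur unchanged in Tlr6, and the same 256 are 11.04% of the 2318 windows of Tlr6. None of the coding windows of the other 7 members occurred in another member. The window of 101 bases is the gene length less the effective length, plus 1, in the deposited tables, a difference of 100 in 99.98% of the 27141 genes longer than 1000 bases. The deposited expected counts of Tlr1 and of Tlr6 were not whole numbers in 15 of 16 libraries each, those of Myd88 in 1, and those of the other members in none. Values of Tlr1 and Tlr6 are therefore estimates in which reads were shared out.

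For Tlr1 the levels were 1.46, 2.03, 2.09, 0.254 and 0.854 CPM in wild-type PBS, 0.283, 0.807, 1.06, 1.17 and 0.917 CPM in mutant PBS, 1.72, 0.874 and 1.65 CPM in wild-type 5-FU and 1.16, 1.76 and 6.33 CPM in mutant 5-FU replicates. Mutant 5-FU replicate 3 stood above all other libraries, and the groups otherwise overlapped. Tlr6 had 4.29, 4.30, 3.45, 2.63 and 3.00 CPM in wild-type PBS, 3.91, 5.12, 3.69, 5.27 and 3.67 CPM in mutant PBS, 5.48, 5.06 and 5.30 CPM in wild-type 5-FU and 4.43, 3.85 and 5.37 CPM in mutant 5-FU replicates. All 3 wild-type 5-FU libraries were above all 5 wild-type PBS libraries in Tlr6, which 16% of all tested genes also showed. The difference was 0.58 ± 0.27 (adjusted p = 0.133), and it passed on log2(TPM + 0.5), at 1.63 (adjusted p = 0.0228), where the median of all genes was 1.12. The other Tlr6 differences, from −0.51 ± 0.39 for the responses to 0.29 ± 0.24 for genotype under PBS, did not pass. For Tlr1 the largest difference was 1.84 ± 0.65 for 5-FU against PBS in the mutant (adjusted p = 0.196), and it was 0.77 (adjusted p = 0.891) without mutant 5-FU replicate 3. In wild type it was 0.10 ± 0.66, between genotypes −0.61 ± 0.59 under PBS and 1.12 ± 0.74 after 5-FU, and between the responses 1.74 ± 0.95, none of which passed.

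Adding the counts of both genes removes the division of shared reads. The sum was 4.87 CPM on average in wild-type PBS, 5.18 in mutant PBS, 6.69 in wild-type 5-FU and 7.63 in mutant 5-FU. It differed by 0.46 ± 0.32 after 5-FU in wild type (adjusted p = 0.292) and by 0.56 ± 0.32 in the mutant (adjusted p = 0.508). Tlr1 made up 6.74 to 37.7% of the sum in 15 libraries and 54.1% in mutant 5-FU replicate 3.

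Among the endosomal receptors, Tlr9 (chromosome 9, 106222598 to 106226883, plus strand) had 14 counts in all 16 libraries together. In 12 libraries there were 0 counts, which allows up to 0.0798 to 0.264 CPM (3 counts, depending on the library, counting error only). Wild-type PBS replicate 5 had the most, 9 counts or 0.276 CPM. At this depth no comparison could be made.

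Tlr7 (chromosome X, 167304929 to 167330558, minus strand), the receptor for single-stranded RNA, fell after 5-FU in wild type. It had 14.5, 8.34, 20.95, 14.5 and 17.1 CPM in wild-type PBS replicates 1 to 5 against 0.85, 0.958 and 3.08 CPM in wild-type 5-FU replicates 1 to 3. No 5-FU library reached the lowest PBS library, as for 15.9% of tested genes in this direction. The means were 15.1 ± 4.61 (SD, n = 5) and 1.63 ± 1.26 CPM (n = 3), and the log2 fold change was −3.22 ± 0.55 (adjusted p = 0.00175). In pooled counts, 1603 in PBS against 145 after 5-FU, this was a 10.1-fold difference with a 95% counting interval of 8.48 to 12. That interval leaves out the spread between libraries. In bulk samples such as these, fewer cells of a type and less RNA per cell cannot be told apart.

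In the mutant, Tlr7 stood at 15.3, 13.8, 9.86, 6.38 and 5.71 CPM under PBS and at 1.53, 2.03 and 4.16 CPM after 5-FU. The groups did not overlap here either, as for 4.92% of tested genes in this direction. The difference of −1.98 ± 0.51 did not pass (adjusted p = 0.0541), and it did pass with DESeq2 (adjusted p = 0.00138) and among libraries with the same code writing (−2.36, adjusted p = 0.0488). The wild-type and mutant responses differed by 1.24 ± 0.67 (adjusted p = 0.525), and the genotypes after 5-FU by 0.67 ± 0.54 (adjusted p = 0.495). The genotype difference was 0.14 without mutant 5-FU replicate 3, 1.504 without wild-type 5-FU replicate 3 and 0.0060 with the immunoglobulin share as a covariate. Under PBS the mutant differed from wild type by −0.56 (adjusted p = 1).

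Tlr13 (chromosome X, 106143204 to 106160493, plus strand), which in mice recognises a conserved stretch of bacterial 23S ribosomal RNA, was the one member whose response to 5-FU differed between the genotypes. In wild-type PBS replicates 1 to 5 it had 7.60, 0.689, 1.72, 3.78 and 6.28 CPM. The wild-type 5-FU replicates had 0.0607, 0.133 and 0.152 CPM, which are 2, 5 and 4 counts. Each was below every PBS library, as for the same 15.9% of tested genes. Tlr13 fell in wild type, with a log2 fold change of −5.08 ± 1.00 (adjusted p = 0.00479). Pooled, 488 counts in PBS against 11 after 5-FU made a 40.4-fold difference with a 95% counting interval of 22.4 to 81.4. The interval leaves out the spread between libraries.

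The mutant libraries did not follow this. Tlr13 had 1.69, 0.52, 1.497, 3.37 and 2.17 CPM in mutant PBS replicates 1 to 5 and 1.61, 4.06 and 14.2 CPM in mutant 5-FU replicates 1 to 3. Replicate 1 lay among the PBS libraries and replicate 3 was the highest of the series. The difference was 1.83 ± 0.72 (adjusted p = 0.269), and 0.61 (adjusted p = 0.94) without mutant 5-FU replicate 3. After 5-FU, Tlr13 was higher in the mutant than in wild type in every library, by 5.80 ± 1.06 on the log2 scale (means 6.64 ± 6.70 and 0.115 ± 0.0482 CPM, SD, n = 3 and 3; adjusted p = 0.0137). All 3 mutant libraries lay above all 3 wild-type libraries for 21.4% of tested genes and below them for 17.9%. The responses of the genotypes differed by 6.91 ± 1.22 (adjusted p = 0.0190), and the same difference among libraries with the same code writing was 7.84 (adjusted p = 0.0335). The genotypes under PBS differed by −1.11 ± 0.65 (adjusted p = 1). Without wild-type 5-FU replicate 1, the genotype difference after 5-FU was 5.50 (adjusted p = 0.101) and the difference of responses 6.61 (adjusted p = 0.105). Without replicate 2 they were 5.93 (adjusted p = 0.0889) and 7.04 (adjusted p = 0.106), and without replicate 3 the difference of responses was 7.13 (adjusted p = 0.0607). On log2(TPM + 0.5) the genotype difference after 5-FU was 2.04 (adjusted p = 0.304), the wild-type response −1.39 (adjusted p = 0.0995) and the difference of responses 2.68 (adjusted p = 0.495).

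Myd88 (chromosome 9, 119335934 to 119341411, minus strand), the shared adaptor, rose after 5-FU in wild type. It was even across wild-type PBS replicates 1 to 5, at 59.9, 60.7, 60.4, 61.0 and 65.1 CPM, and had 99.1, 94.3 and 168 CPM in wild-type 5-FU replicates 1 to 3. All 5-FU libraries were above all PBS libraries, as for 16% of tested genes. The means were 61.4 ± 2.12 (SD, n = 5) and 121 ± 41.5 CPM (n = 3), a log2 fold change of 0.97 ± 0.25 (adjusted p = 0.0209). Mutant PBS replicates 1 to 5 had 62.1, 64.1, 29.7, 67.3 and 61.9 CPM and mutant 5-FU replicates 81.6, 102 and 140 CPM. Here too the groups did not overlap, as for 5.04% of tested genes in this direction, and the difference of 0.92 ± 0.25 did not pass (adjusted p = 0.0796; 0.91 and 0.0223 with DESeq2). The genotypes differed by −0.11 ± 0.22 under PBS and −0.16 ± 0.29 after 5-FU, and their responses by −0.06 ± 0.37 (adjusted p = 0.961). The wild-type rise was 0.66 (adjusted p = 0.115) without wild-type 5-FU replicate 3 and 0.93 (adjusted p = 0.0688) among libraries with the same code writing.

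Counted over the comparisons, 5-FU in wild type gave 1 higher and 2 lower of the 8 tested members, where 5.55% of all tested genes were higher and 9.31% lower (14.9% in all). In the mutant, 5-FU gave 0 of 8, against 2.2% of all genes (0.837% higher and 1.36% lower). With edgeR 2159 genes had an unadjusted p under 0.05 in that comparison, and DESeq2 called Tlr7 and Myd88. Genotype after 5-FU gave 1 of 8, higher in the mutant, against 1.95% of all genes (1.49% higher and 0.461% lower). The difference of responses gave 1 of 8, positive, against 0.589% (0.558% positive and 0.0303% negative). Genotype under PBS gave 0 of 8, against 0.0182% of all genes. There edgeR had 541 genes with an unadjusted p under 0.05, and 31 genes were called by DESeq2. The median log2 fold change of the 8 members was −0.20 for 5-FU in wild type, where the median of all tested genes was −0.11, and 0.14 in the mutant, where that of all genes was −0.03. The 2 comparisons between genotypes and the 2 between treatments share libraries.

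**Figure D3:**
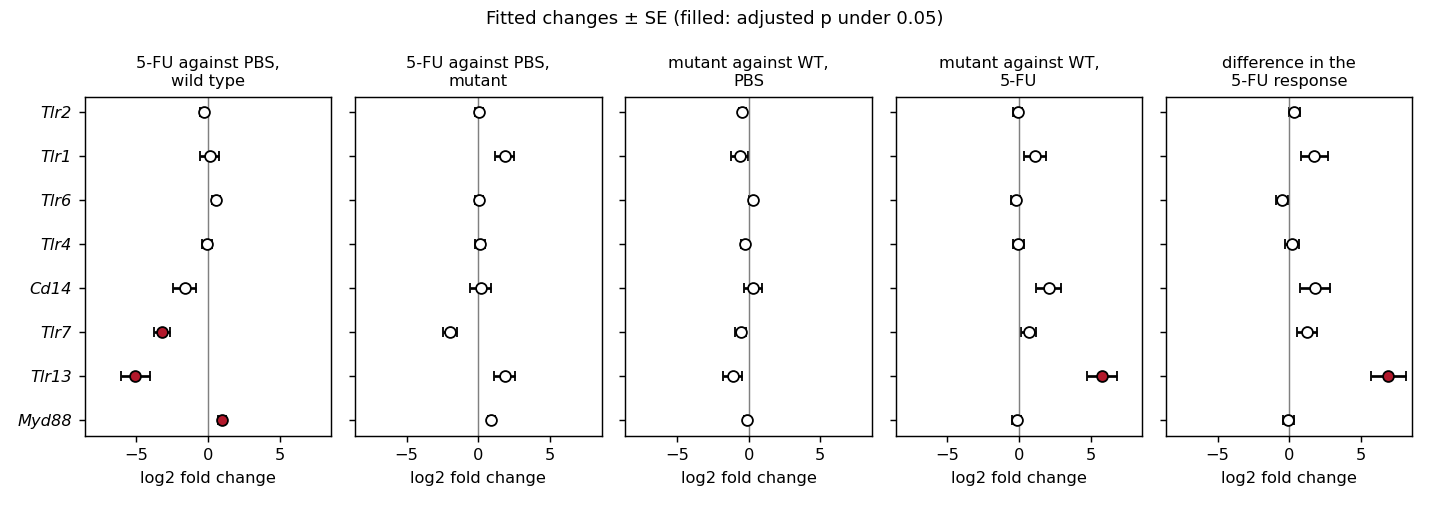
Fitted log2 fold change (x axis) with its SE for the 8 tested members in the 5 comparisons, filled where the adjusted p is under 0.05. In wild type Tlr7 (−3.22) and Tlr13 (−5.08) are to the left and Myd88 (0.97) to the right, and Tlr13 is the filled point of the last 2 panels (5.80 and 6.91).

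Markers of mature cells changed in the same comparisons. In wild type those that passed after 5-FU fell, as did Tlr7 and Tlr13, while Myd88 rose. For 5-FU in wild type, 8 of 16 monocyte and macrophage markers, 10 of 12 neutrophil markers, 8 of 11 B cell markers, 9 of 9 plasma cell markers, 6 of 8 tested plasmacytoid dendritic cell markers, 9 of 9 conventional dendritic cell markers (a list that includes Flt3, which progenitors also express) and 8 of 10 T and NK cell markers were lower. Of the monocyte and macrophage list only Cd300e was at 0 in any library, and it was at 0 in wild-type 5-FU replicates 2 and 3. Siglech, Klk1 and Cd209d of the plasmacytoid dendritic cell list were at 0 in all 3 wild-type and all 3 mutant 5-FU libraries. For genotype after 5-FU, 2 of 16 monocyte and macrophage markers (Adgre1, with 9.63 CPM in the mutant and 0.423 CPM in wild type, and Cd300e, with 15.7 and 0.0101 CPM), 5 of 11 B cell, 7 of 9 plasma cell, 4 of 10 T and NK cell, 1 of 8 plasmacytoid and 1 of 9 conventional dendritic cell markers were higher in the mutant. Flt3, of the conventional dendritic cell list, was lower there (20.9 against 123 CPM, −2.56, adjusted p = 0.00107), as was 1 of the 12 LSK markers. None of the 12 neutrophil markers passed, and their sum averaged 96.0 CPM in the mutant and 182 CPM in wild type. Of the 16 fitted monocyte and macrophage changes between genotypes after 5-FU, 15 were positive and 1 negative. The list median was 1.98, where that of all tested genes was 0.07. The negative one was F13a1, with 1.79 CPM in the mutant and 36.7 CPM in wild type (adjusted p = 0.0828). For 5-FU in the mutant, 6 of 12 neutrophil, 2 of 8 plasmacytoid and 1 of 9 conventional dendritic cell markers were lower and 1 of 16 monocyte and macrophage markers was higher, with none passing on the B cell, plasma cell and T and NK cell lists. Of all tested genes, 9.31% were lower after 5-FU in wild type and 1.36% in the mutant. Between genotypes after 5-FU, 1.49% were higher in the mutant and 0.461% lower. The difference of responses passed as positive for 1 of 16 monocyte and macrophage, 4 of 11 B cell and 2 of 9 plasma cell markers. It did so too for 4 of 10 T and NK cell and 1 of 8 plasmacytoid dendritic cell markers. Flt3 passed as negative there, and no neutrophil or LSK marker passed. Of the 16 monocyte and macrophage differences, 15 were positive and 1 negative. Of all tested genes, 0.558% passed as positive and 0.0303% as negative. The part of mature cells in the changes of Tlr7, Tlr13 and Myd88 was not tested.

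Libraries with similar summed monocyte and macrophage markers were set side by side. A similar sum does not mean similar monocyte content. In mutant PBS, Ly6c2, Lyz2 and Ctss held 3152, 1098 and 644 CPM of the mean sum of 5185 CPM. For 5-FU in the mutant, 8 of the 16 fitted marker changes were positive and 8 negative. Mutant PBS replicates 4 and 5 and the mutant 5-FU libraries had summed monocyte and macrophage markers of 1753, 1338 and 1210 to 1580 CPM. Their summed neutrophil markers were far apart, at 3939 and 4180 CPM in those PBS libraries and 60.9 to 154 CPM after 5-FU. Tlr7 stood at 6.38 and 5.71 CPM in those PBS libraries and at 1.53 to 4.16 CPM in the 5-FU libraries. Tlr13 stood at 3.37 and 2.17 CPM in those PBS libraries and at 1.61 to 14.2 CPM in the 5-FU libraries. Myd88 was at 67.3 and 61.9 CPM against 81.6 to 140 CPM. With the immunoglobulin share of each library as a covariate, the wild-type differences after 5-FU were −2.39 for Tlr7 (adjusted p = 0.356) and 0.49 for Myd88 (adjusted p = 0.683), and 33 genes were called in place of 2450. Tlr13 was −8.37 in that fit (adjusted p = 0.0309). The shares of the wild-type 5-FU libraries lay outside the range of the wild-type PBS libraries (6.37 to 44.2%).

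**Figure D4:**
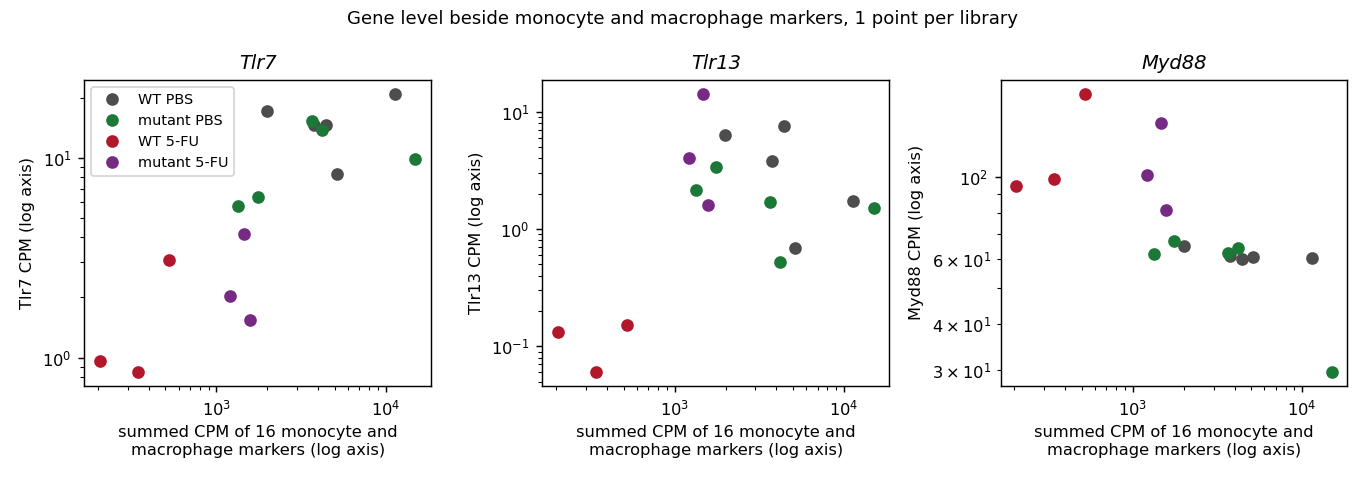
CPM of Tlr7, Tlr13 and Myd88 (y axes, log scale) against the summed CPM of 16 monocyte and macrophage markers (x axes, log scale), 1 point per library, coloured by group. A similar sum does not mean similar monocyte content. The wild-type 5-FU libraries lie at the left end (205 to 525 CPM of markers), with Tlr7 at 0.85 to 3.08 CPM and Tlr13 at 0.0607 to 0.152 CPM, while their Myd88 is 94.3 CPM or more.

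The rest of the pathway was read from 6 lists. For 5-FU in wild type, 5.55% of all tested genes were higher and 9.31% lower, with a median of −0.11. In the mutant 0.837% were higher and 1.36% lower, with a median of −0.03. Between genotypes after 5-FU, 1.49% were higher in the mutant and 0.461% lower. Of 10 co-receptor and trafficking genes, 4 fell after 5-FU in wild type and none rose (list median −1.34). Unc93b1, which carries TLR7, TLR9 and TLR13 to endosomes, fell from 229 to 111 CPM (−1.04 ± 0.26, adjusted p = 0.0159). Ly86 fell from 26.9 to 1.26 CPM (−4.45, adjusted p = 0.0192), and Cd180, which its product binds, fell from 5.87 to 1.88 CPM (−1.64, adjusted p = 0.0391). Rab7b, a small GTPase of late endosomes, fell from 7.04 to 0.816 CPM (−3.13, adjusted p = 0.0256). Ly96 (MD-2), the partner of TLR4, averaged 37.3 CPM in PBS and 4.42 CPM after 5-FU (adjusted p = 0.0529). In the mutant none of the 10 passed after 5-FU (list median −0.57), and Unc93b1 averaged 217 CPM in PBS and 126 CPM after 5-FU (adjusted p = 0.146). After 5-FU, Cd36, a scavenger receptor that helps TLR2 with TLR6, was higher in the mutant, at 13.6 against 0.653 CPM (4.36 ± 1.08, adjusted p = 0.0494).

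None of the other 5 Toll-like receptors passed in any comparison. Tlr12, which binds profilin of apicomplexan parasites, averaged 6.74 CPM in wild-type 5-FU against 2.27 in wild-type PBS (1.56 ± 0.59, adjusted p = 0.0782) and 6.48 against 2.57 CPM in the mutant (adjusted p = 0.346). Tlr11 averaged 0.587 CPM in wild-type PBS and had no counts in either 5-FU group. Tlr3, the receptor for double-stranded RNA, averaged 1.64 to 2.91 CPM, and Tlr5 and Tlr8 stayed under 1 CPM in every group mean.

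Of 26 adaptors and kinases, 1 rose and 1 fell after 5-FU in wild type, with a list median of 0.35. Among all tested genes, 5.55% were higher and 9.31% lower there, with a median of −0.11. Irak4, the kinase that MYD88 recruits first, rose from 20.6 to 30.8 CPM (0.58 ± 0.17, adjusted p = 0.0350). Irak2 fell from 19.7 to 7.82 CPM (−1.33 ± 0.28, adjusted p = 0.00716). The ubiquitin ligase Traf6 averaged 29.2 CPM in PBS and 55.1 CPM after 5-FU (adjusted p = 0.0510), and Tab1 24.0 and 53.0 CPM (adjusted p = 0.0581). In the mutant 1 of 26 rose, the IkB kinase gene Chuk, from 29.8 to 51.3 CPM (0.78 ± 0.16, adjusted p = 0.0182). After 5-FU the tyrosine kinase Syk was lower in the mutant, at 61.2 against 124 CPM (−1.02 ± 0.21, adjusted p = 0.0260), the one call of this list between genotypes. Among all tested genes, 0.837% were higher after 5-FU in the mutant. Between genotypes after 5-FU, 0.461% of them were lower in the mutant.

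Of 12 transcription factors, 1 rose and 2 fell after 5-FU in wild type, 1 rose in the mutant, and none passed between genotypes. The shares of all tested genes were 5.55% higher and 9.31% lower in wild type, and 0.837% higher in the mutant. Nfkb1, which encodes the p105/p50 subunit of NF-kB, rose after 5-FU in both genotypes, from 106 to 193 CPM in wild type (0.86 ± 0.16, adjusted p = 0.00272) and from 110 to 178 CPM in the mutant (0.70 ± 0.16, adjusted p = 0.0237). Irf5 and Irf8, which act downstream of MYD88 in myeloid cells, fell in wild type, from 57.2 to 17.6 CPM (−1.70, adjusted p = 0.00104) and from 86.6 to 26.1 CPM (−1.73, adjusted p = 0.0205). In the mutant Irf5 averaged 46.3 CPM in PBS and 36.1 CPM after 5-FU (adjusted p = 0.618).

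Genes that Toll-like receptor signalling induces in myeloid cells were mostly lower after 5-FU in wild type: 11 of the 19 tested fell and 1 rose (list median −2.54). Among all tested genes, 9.31% were lower and 5.55% higher there, with a median of −0.11. The chemokine Ccl3 fell from 53.7 to 0.191 CPM (−8.16 ± 0.92, adjusted p = 9.81e-05) and Ccl4 from 75.3 to 2.68 CPM (−4.82, adjusted p = 0.00212). Zfp36, which destabilises cytokine mRNA, fell from 255 to 28.0 CPM (adjusted p = 0.00268), and Il10 from 7.98 to 0.187 CPM (adjusted p = 0.00624). Socs3, an inhibitor of cytokine signalling, rose from 13.7 to 87.97 CPM (2.67 ± 0.81, adjusted p = 0.0419). In the mutant 2 of 19 fell, Ccl3 from 31.9 to 0.282 CPM (−6.87, adjusted p = 0.000506) and Ccl4 from 58.6 to 3.81 CPM (−3.95, adjusted p = 0.0134). After 5-FU, Il1rn passed between genotypes, with 2.61 CPM in the mutant and 0.0481 CPM in wild type (adjusted p = 0.0447). Among all tested genes, 1.36% were lower after 5-FU in the mutant. Between genotypes after 5-FU, 1.49% of them were higher in the mutant. The mature-cell markers given above changed in the same comparisons, and the part of mature cells was not tested.

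Of all tested genes, 9.31% were lower after 5-FU in wild type and 1.36% in the mutant. In the interleukin-1 receptor branch, which also signals through MYD88, 1 of 8 genes was lower after 5-FU in each genotype. It was the decoy receptor Il1r2, which fell from 8.92 to 2.24 CPM in wild type (−1.997, adjusted p = 0.00317) and from 8.42 to 1.41 CPM in the mutant (−2.57, adjusted p = 0.00191). After 5-FU, 2 of 8 were lower in the mutant than in wild type, against 0.461% of all tested genes. The signalling receptor Il1r1 had 16.4 against 50.8 CPM (−1.63 ± 0.34, adjusted p = 0.0260), and the interleukin-18 receptor subunit Il18rap 21.1 against 45.6 CPM (−1.11 ± 0.23, adjusted p = 0.0233). Under PBS, and for the difference of responses, no gene of the 6 lists passed.

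**Figure D5:**
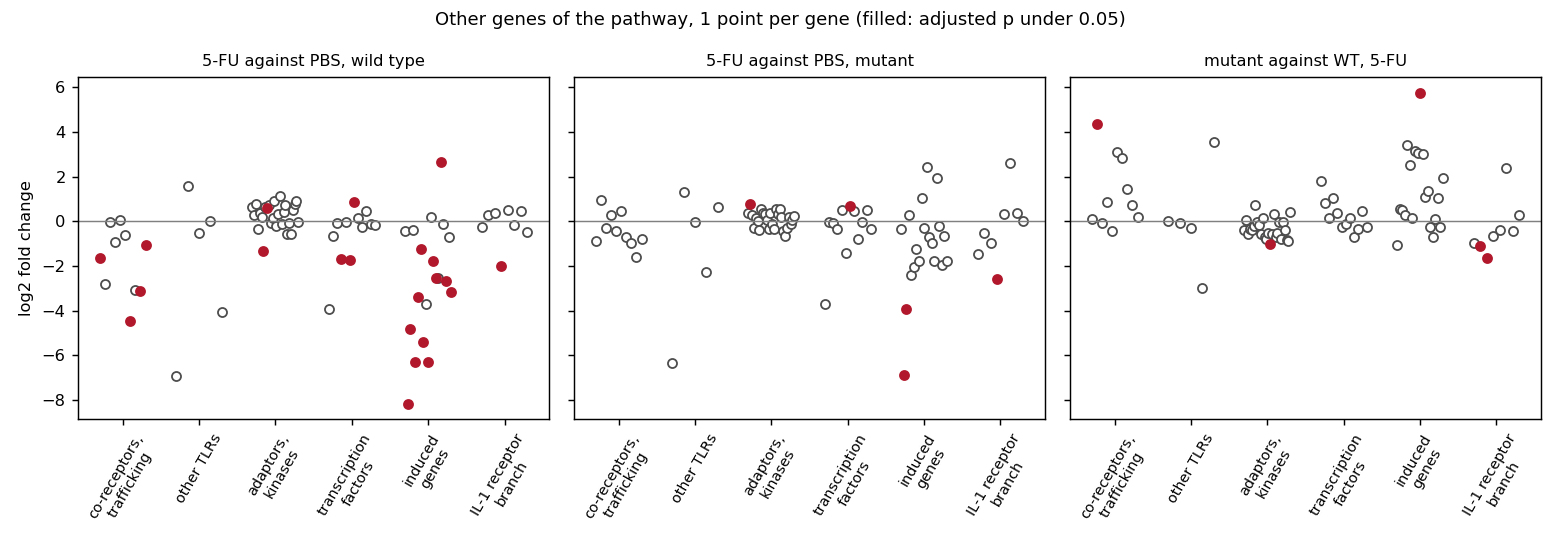
Log2 fold change (y axis) of the other pathway genes, 1 point per tested gene, by list (x axis) in 3 comparisons, filled where the adjusted p is under 0.05. The induced genes hold most filled points in wild type (11 lower and 1 higher of 19), 2 in the mutant, and 1 between genotypes after 5-FU. Among all tested genes, 9.31% were lower and 5.55% higher in wild type, and 1.36% lower in the mutant. Between genotypes after 5-FU, 1.49% of them were higher in the mutant.

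Promoter sequences were looked up in the RefSeq table for GRCm38.p6 (250 bases before to 50 after each start), which matched 6 of the 9 members. Those of Tlr13 and Myd88 are shown, as members that changed in opposite directions after 5-FU in wild type. Tlr7, which also fell there, had no entry, nor had Tlr4 and Cd14. The printed Myd88 stretch lies inside the gene span given above, since its RefSeq start is downstream of the GENCODE start. Only the part outside annotated exons is printed, 179 bases for Tlr13 and 227 for Myd88. Capitals mark a match to GAGGAA, the purine-rich core bound by some Ets factors.
Tlr13 (chrX:106143025-106143203, plus strand): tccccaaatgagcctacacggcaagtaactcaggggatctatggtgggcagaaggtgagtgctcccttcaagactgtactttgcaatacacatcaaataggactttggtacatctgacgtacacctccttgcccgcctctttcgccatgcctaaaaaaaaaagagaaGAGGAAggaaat
Myd88 (chr9:119340042-119340268, minus strand): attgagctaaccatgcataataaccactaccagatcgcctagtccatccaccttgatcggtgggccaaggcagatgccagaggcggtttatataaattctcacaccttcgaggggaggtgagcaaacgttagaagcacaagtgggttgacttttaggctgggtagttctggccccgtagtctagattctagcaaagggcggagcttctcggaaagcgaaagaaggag
The motifs searched, on both strands, were the Ets core GAGGAA, the GATA motif AGATAA, the AP-1 motif TGANTCA, an NF-kB motif (GGG, then 2 unspecified bases, then TTTCC) and the C/EBP motif TTGCGCAA. No match overlapped another in the windows printed. Tlr13 had 1 match, GAGGAA at 83 bases before its RefSeq start, and Myd88 had none of the motifs in its window. GAGGAA occurs in 28.3% of the 32851 promoters, AGATAA in 11.2%, TGANTCA in 7.81%, the NF-kB motif in 1.63% and TTGCGCAA in 0.183%. Tlr1 had GAGGAA in 1 of its 2 promoters, and Tlr9 had GAGGAA at 2 places, AGATAA at 1 and TGANTCA at 1. A match describes letters, and says nothing of binding.

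The members' variation within groups was described by the correlation of log2 CPM deviations from the group mean over the 16 libraries, which share depth and composition. The partners named are the 3 highest of all genes compared, so high r values are selected by the search itself. Among 9978 other genes with a mean of at least 5 CPM, the pattern most like that of Tlr13 was that of Itgam (CD11b), a myeloid integrin that is on the monocyte list (Pearson r = 0.90, Spearman rho = 0.90, and r = 0.92 without the 2 libraries farthest from the median). With the summed monocyte and macrophage markers Tlr13 had r = −0.36 and with the immunoglobulin share r = −0.56, and Itgam had r = −0.64 with that share. Next in likeness to Tlr13 came Kri1 (r = 0.89) and Pirb (r = 0.87), which had r = −0.78 and −0.49 with the immunoglobulin share. Cd14 was most like Abcd2 (r = 0.95), Ncf1 (r = 0.90) and Plin2 (r = 0.90). Tlr1 was most like Clec7a (r = 0.85, and 0.72 without the 2 farthest), a lectin on the monocyte list, Aif1 (r = 0.83) and Clec4a3 (r = 0.83), and Tlr6 most like Ifngr2 (r = 0.84), Abi3 (r = 0.77) and Tmem237 (r = 0.76). Tlr4 was most like Adck2 (r = 0.95), Pdk2 (r = 0.94) and Dennd2d (r = 0.94), and Tlr2 most like Cyp4v3, Rint1 and Tmco6 (r = 0.82, 0.82 and 0.81). Myd88 was most like Lrwd1, Sptlc2 and Slc16a3 (r = 0.93, 0.93 and 0.92), and Tlr7 most like Szrd1, Pym1 and Prcc (r = 0.82, 0.78 and 0.78). Between members the highest r was 0.78 (Cd14 and Myd88), then 0.66 (Tlr1 and Tlr6, which share reads) and 0.61 (Tlr13 and Cd14), and the lowest was −0.62 (Tlr1 and Tlr4).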

How the data were processed

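RNA sequencing of 16 LSK samples was read from 1 table per sample. RSEM 1.3.1, FastQC 0.11.2 and mm10/GRCm38 are named in the submitters' processing notes, and for the aligner and the annotation release the entry is: not given in the sources used here. Each replicate held 3000 to 10000 sorted cells and was amplified with a NuGEN Ovation Ultralow kit, per the labels' protocols. Per the file headers, the authors deposited RSEM expected counts, which estimate how many fragments came from each gene, and beside them TPM values, FPKM values, gene lengths and effective lengths. The deposited TPM served to compare levels between genes and for alternatives, and the deposited FPKM was used only to check the tables.

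Expected counts were rounded, filtered with filterByExpr of edgeR 4.0.16 (minimum count 10) and scaled by TMM (factors 0.508 to 1.37, immunoglobulin genes included). CPM values use these scaled totals. The robust quasi-likelihood F test of edgeR (R 4.3.3), with 1 mean per group over all 16 samples, gave log2 fold changes, and p values were adjusted by Benjamini and Hochberg over all genes (threshold 0.05). Each SE was obtained by dividing the fitted change by the root of its F value. The procedure was run on simulated counts with known changes, which carried no batch and no shift in immunoglobulin or mature-cell content. Counting intervals are 95% and cover counting error only. Gene IDs matched GENCODE M21 in 99.8% of 53342 cases.

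The members, pathway and marker lists and tests were chosen with earlier results of these data known. All members are named in every comparison, and from each pathway list the counts called and up to 4 genes with the smallest p. The marker genes Adgre1, Cd300e, Flt3 and F13a1, and outside that limit Socs3 and Ly96 in wild type, Irf5 in the mutant and all 5 other Toll-like receptors, were named after their values were seen.

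Same-numbered PBS samples of the 2 genotypes deviated together (r of 0.165 to 0.569 over 5 pairs). Between other groups the correlations ran from −0.158 to 0.168. The labels do not state that equal numbers mark a shared animal, litter or day, and the main tests held no pairing. Replicate numbers entered only an alternative, the replicate block. Between libraries of the same group, rounded counts differed in at least 95.7% of tested genes, and the highest correlation of log2 CPM was 0.983. Neither value was set against sampling noise, so they cannot show whether replicates are technical. Alternatives were RLE scaling, DESeq2 1.42.0, no filter, limma 3.58.1 (limma-trend) on log2(TPM + 0.5) and log2(TPM + 0.1), the compared groups alone, the replicate block, immunoglobulin genes left out or their share as a covariate, code writing as a covariate or held equal, and leaving out each replicate. Counting Tlr1 and Tlr6 together was added after the data were seen.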

Additional observations from a re-analysis of the deposited data

Results flagged for a closer look

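The response of Tlr13 to 5-FU differed between the genotypes in a test of the difference itself, by 6.91 on the log2 scale (edgeR quasi-likelihood test, adjusted p = 0.0190): −5.08 in wild type and 1.83 in the mutant.

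Single libraries stood far from the others of their group in 11 of 34 groups of 5 looked at, where chance gives about 1 in 20 for a single group. The groups share libraries, so the flags are not independent of each other. Among the members, Tlr4 was low in replicate 3 of both PBS groups (wild type 3.99 CPM, mutant 5.55 CPM), Myd88 was low in mutant PBS replicate 3 (29.7 CPM) and somewhat above the rest in wild-type PBS replicate 5 (65.1 CPM), and Tlr9 was above 0 in 1 mutant PBS library (0.0424 CPM, which is 1 count). Among marker lists, the summed level was high for plasmacytoid dendritic cells in 1 library of each PBS group (wild type 2347 CPM, mutant 2277 CPM, replicate 3 of each), for T and NK cells (540 CPM) and LSK cells (4981 CPM) in 1 wild-type PBS library, and for monocytes and macrophages (14966 CPM) and neutrophils (24519 CPM) in 1 mutant PBS library.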

How the results depend on the processing

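Over 8 members and 5 comparisons, 773 of the values under alternatives kept direction and side of the threshold, 16 lost it, 11 gained it and 46 turned direction, the last all for members that had not passed. The wild-type fall of Tlr7 kept its direction in all alternatives and lost its call only with the immunoglobulin share as a covariate, and the alternatives that ended the calls of Tlr13 and Myd88 include those named above, the second pseudocount (Tlr13 −2.42 in wild type, adjusted p = 0.0638) and, for Myd88, code writing as a covariate (0.86, adjusted p = 0.0910). Tlr7 in the mutant passed also with the immunoglobulin genes left out (adjusted p = 0.0441), with a term for code writing (adjusted p = 0.0225) and without mutant PBS replicate 5 (adjusted p = 0.0469), and on TPM it was −0.92 (adjusted p = 0.775) and −1.10 (adjusted p = 0.759). Depth limits Tlr9, and Tlr13 after 5-FU in wild type.

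On TPM the median of all genes after 5-FU in wild type was 1.12 (pseudocount 0.5) or 1.297 (0.1), with 91.3 or 88.8% of calls higher against 37.3%, so that values of 1.12 and 1.21 for Tlr2, 1.26 and 1.51 for Tlr4 and 1.63 and 2.03 for Tlr6 lie near or above it. Those of Tlr6 passed (adjusted p = 0.0228 and 0.0415). Between genotypes after 5-FU the TPM median was −0.66 or −0.76, with −0.015 and −0.13 for Tlr1. The TPM difference of responses was −0.62 and −0.64 for Tlr2 and −0.84 and −0.94 for Tlr4.

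With the replicate block, Tlr7 in the mutant passed (−2.29, adjusted p = 0.0136), Tlr4 in wild type was 0.23 and Tlr6 in the mutant −0.0098. Between the PBS groups the block changed no call. With the immunoglobulin share, Cd14 in the mutant was −0.027, the genotype difference after 5-FU was 0.24 for Myd88, 0.20 for Tlr2 and 0.26 for Tlr4, and the Myd88 difference of responses 0.39. With code writing as a covariate these genotype differences were 0.026, 0.11 and 0.38, Tlr6 in the mutant was −0.020 and the Myd88 difference of responses 0.14 (0.12 with writing held equal). Among PBS libraries without a leading zero, genotype gave 0.033 for Myd88 and 0.90 for Tlr1.

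Leaving out each replicate, 5-FU in the mutant ran from −0.60 to 0.55 for Cd14, −0.043 to 0.21 for Tlr2, −0.14 to 0.39 for Tlr4 and −0.061 to 0.18 for Tlr6. In wild type it ran from −0.14 to 0.37 for Tlr1 and −0.30 to 0.021 for Tlr4. Genotype after 5-FU ran from −0.40 to 0.15 for Myd88, −0.24 to 0.13 for Tlr2 and −0.32 to 0.22 for Tlr4, and genotype under PBS from −0.17 to 0.082 for Myd88. The difference of responses ran from −0.29 to 0.26 for Myd88 and −0.050 to 0.48 for Tlr4.

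The number of genes called also moved. Genotype under PBS had 3, with DESeq2 31, on TPM 0 and 0 (214 and 221 at an unadjusted p under 0.05), with its groups alone 0 (318), and 1 to 4 leaving out a replicate. Genotype after 5-FU had 321, with DESeq2 1294, on TPM 174 and 199, alone 2080, with the block 1524, the immunoglobulin share 5, code writing 42, and 17 to 206 leaving out a replicate. In wild type, 5-FU had 2450, with DESeq2 4572, on TPM 6928 and 5736, with the block 7318, the immunoglobulin share 33, code writing 1012 or 1572 with it held equal, and 526 to 3233 leaving out a replicate. In the mutant it had 362, with DESeq2 903, on TPM 144 and 136, alone 210, with the block 1014, code writing 887 or 178 with it held equal, and 156 to 405. The difference of responses had 97, with DESeq2 589, the block 383, the immunoglobulin share 4, code writing 27 or 23 with it held equal, and 11 to 309. It needs all 4 groups and has no fit with groups alone.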
